A study of Mus musculus with 96 samples.

Results

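Stomach was compared with intestine in mice aged 3 weeks. The comparison used 12 of the 96 libraries of the series, all those with either tissue in their label: 6 of stomach and 6 of intestine, each from 3 wild-type and 3 Scx-/- samples. Scx encodes scleraxis, a transcription factor of tendon and ligament cells, and genotype entered the test as a covariate. No agent was given, no source used here gives the strain, the sex or the segment of intestine, or states how the Scx-/- allele was made or whether libraries with the same number came from the same animal. Each library was bulk RNA of a frozen organ, so that fewer cells of a type and less RNA per cell cannot be told apart.

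The stomach of the mouse has 2 epithelia. The forestomach carries a keratinised squamous lining, and the glandular stomach carries pits and glands in which mucous cells secrete gastrokines, trefoil peptides and mucin, parietal cells secrete acid and intrinsic factor is made, and chief cells secrete pepsinogens. The lining of the small intestine is built for digestion and uptake. Its enterocytes bear a brush border of disaccharidases and peptidases and export fat as chylomicrons, its goblet cells secrete mucus, and its Paneth cells secrete defensins and lysozyme at the base of the crypts. The intestinal programme is kept by transcription factors of the Cdx and Hnf4 families, and the stomach is patterned by others such as Barx1. At 3 weeks mice are being weaned, and enterocytes are changing from a lactase-rich to a sucrase-rich state.

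The libraries held 303011 to 700065 counts in stomach and 26500 to 386890 in intestine, of which the 3 Scx-/- intestine libraries held only 26500, 30014 and 54955. A level in the text is in CPM, the count scaled to the library total, and a fold change is log2 of stomach minus intestine, so that a positive value is higher in stomach. A gene was called when the quasi-likelihood test of edgeR gave a Benjamini-Hochberg adjusted p under 0.05 and the fold change was above 2. Scx itself had 3 counts in wild-type stomach library 3 and 0 counts in the other 11 libraries, so the label of genotype could not be checked at this depth. The median log2 fold change over all 15710 genes tested was 1.00, and it was 0.49 with library totals in place of TMM factors, 0.20 with DESeq2 and 0.21 without the 3 Scx-/- intestine libraries. Other settings gave a higher median, at 1.38 with all 96 libraries, 1.30 without wild-type intestine library 1 and 2.34 with Scx-/- libraries only. The centre thus moved with the scaling and the libraries kept, and log2 fold changes are to be read against that range and not against 0. With the depth thinned to that of the smallest library, each of the 12 libraries correlated most closely with a library of its own tissue, and at full depth wild-type intestine library 1 had its closest library in stomach (r = 0.782, across genes, against 0.756 for the closest intestine library).

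Stomach and intestine differed in 944 genes (6.01% of the genes tested). Of these, 579 were higher in stomach (3.69% of the 15710 genes tested) and 365 were higher in intestine (2.32%). With library totals as the scaling the balance turned, to 334 genes higher in stomach (2.13%) and 588 higher in intestine (3.74%). Without the 3 Scx-/- intestine libraries the counts were 340 and 269. The CPM values of the 6 and 6 libraries did not overlap in 509 genes higher in stomach (3.24%) and 210 higher in intestine (1.34%), and of the called genes 364 (2.32%) and 160 (1.02%) did not overlap. In 455 of the 944 genes the lower tissue held at most 3 counts over its 6 libraries, and for these the fitted fold change depends on the prior count of the fit. Of the 579 genes, 204 had their highest mean level of all 16 tissues in stomach (35.2%, against 5.76% of all genes tested), and of the 365 genes, 268 had it in intestine (73.4%, against 10.2%).

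**Figure D1:**
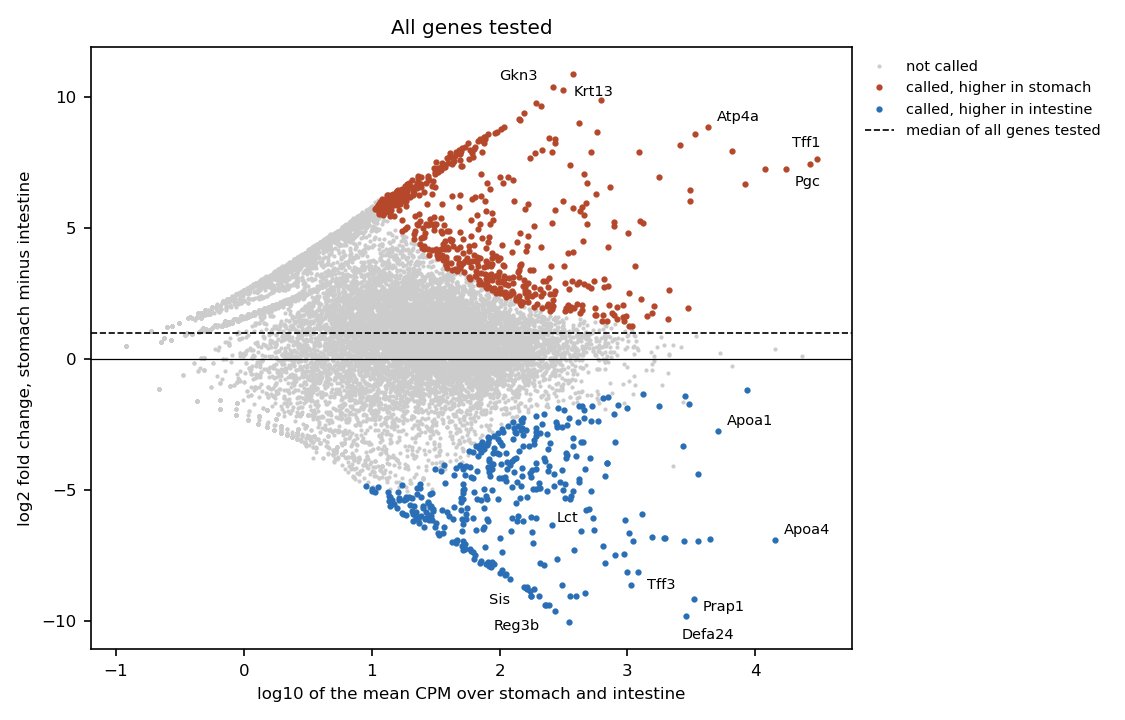
Each point is 1 of 15710 genes, with log10 of its mean CPM over the 2 tissues on the x axis and its log2 fold change (stomach minus intestine) on the y axis. The 579 genes called higher in stomach and the 365 called higher in intestine are coloured, and the dashed line is the median of all genes, at 1.00.

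The sequences upstream of 6 called genes are shown first, because their values are returned to below. The 6 were picked by hand, and others of their lists, such as Tff1 and Apoa4, had higher mean levels. How many of the 6 hold a motif thus says nothing about the called genes as a whole. Lct (lactase), Sis (sucrase-isomaltase), Prap1 (a secreted acidic protein of the enterocyte) and Fabp1 (liver-type fatty acid binding protein) were higher in intestine, and Gkn1 and Gkn2 (gastrokines, secreted by gastric mucous cells) were higher in stomach. The 250 bases before the RefSeq start site are given 5′ to 3′ on the strand of the gene (GRCm38.p6). Capitals mark the Cdx-type motif TTTATG on either strand. They also mark a GATA-type motif, spelled AGATAA, on either strand.
Lct, chr1:128328319-128328568, minus strand: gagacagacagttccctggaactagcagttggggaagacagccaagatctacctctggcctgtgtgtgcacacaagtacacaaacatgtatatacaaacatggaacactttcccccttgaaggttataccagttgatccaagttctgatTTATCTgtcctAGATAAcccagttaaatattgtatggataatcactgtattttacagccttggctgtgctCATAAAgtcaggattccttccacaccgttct
Sis, chr3:72967864-72968113, minus strand: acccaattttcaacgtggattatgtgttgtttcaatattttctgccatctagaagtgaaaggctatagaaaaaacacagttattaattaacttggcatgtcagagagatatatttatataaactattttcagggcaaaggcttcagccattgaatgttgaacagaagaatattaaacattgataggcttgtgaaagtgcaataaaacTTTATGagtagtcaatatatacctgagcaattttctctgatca
Prap1, chr7:140093146-140093395, plus strand: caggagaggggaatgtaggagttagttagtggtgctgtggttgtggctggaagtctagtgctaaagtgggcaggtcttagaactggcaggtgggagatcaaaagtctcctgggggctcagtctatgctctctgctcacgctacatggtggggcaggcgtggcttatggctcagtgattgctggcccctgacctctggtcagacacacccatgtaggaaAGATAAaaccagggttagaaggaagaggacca
Fabp1, chr6:71199629-71199878, plus strand: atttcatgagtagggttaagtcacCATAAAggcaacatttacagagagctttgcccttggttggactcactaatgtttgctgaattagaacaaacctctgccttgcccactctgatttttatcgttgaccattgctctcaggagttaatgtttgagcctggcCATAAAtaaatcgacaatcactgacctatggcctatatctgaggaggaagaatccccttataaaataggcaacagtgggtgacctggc
Gkn1, chr6:87350916-87351165, minus strand: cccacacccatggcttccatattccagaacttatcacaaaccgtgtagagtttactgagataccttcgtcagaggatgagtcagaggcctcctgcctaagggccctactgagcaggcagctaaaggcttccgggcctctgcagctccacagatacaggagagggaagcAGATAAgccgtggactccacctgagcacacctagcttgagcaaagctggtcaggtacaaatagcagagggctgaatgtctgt
Gkn2, chr6:87373115-87373364, plus strand: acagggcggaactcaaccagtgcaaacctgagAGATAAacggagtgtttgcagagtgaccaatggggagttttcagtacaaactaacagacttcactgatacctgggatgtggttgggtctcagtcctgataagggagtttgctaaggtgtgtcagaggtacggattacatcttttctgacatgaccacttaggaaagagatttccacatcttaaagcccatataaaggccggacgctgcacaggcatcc
Lct held 1 Cdx-type motif, 31 to 26 bases before its start site on the antisense strand, and 2 GATA-type motifs between 101 and 85 bases before it. Sis held 1 Cdx-type motif at 43 to 38 bases before its start site and Fabp1 held 2, both antisense. Prap1, Gkn1 and Gkn2 held 1 GATA-type motif each and no Cdx-type motif, at 32, 82 and 218 bases before the start site. Among all 32851 start sites of the table, 10.8% held the Cdx-type and 9.99% the GATA-type motif in the same window. Of the tested genes 11230 of 15710 had an entry, and 6.84%, 6.67% and 1.31% of their 14324 start sites held the Cdx-type, the GATA-type and an HNF4-type motif (CAAAGTCC). Of the 365 genes called higher in intestine 267 had an entry, and these shares were 11.2%, 12.1% and 5.92% of 321 start sites. Of the 579 genes called higher in stomach 426 had an entry, and the shares were 5.9%, 5.9% and 1.11% of 542 start sites. Many genes of these sets had no entry, so the shares cover only a part of them. Called brush border genes with an entry (21 of 24 genes, 26 start sites) held the Cdx-type motif at 4 and the GATA-type at 7 start sites. They held the HNF4-type motif at 4, against 1.2% of all start sites. None of the 6 sequences shown held it. A match is a run of letters and says nothing about binding. For gastric mucous genes the same count was void, since only 8 of the 14 called genes had an entry.

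The largest shares of counts that separated the tissues belonged to the glandular stomach. Of 16 gastric mucous cell genes measured, 14 were higher in stomach and 0 in intestine, with a median log2 fold change of 7.41 (7.31 with genes at 0 in a tissue set to their bound) against 1.00 for all genes. Summed, they took 12.3 to 20.2% of the counts of a stomach library and 0.0253 to 0.599% of an intestine library, and the groups were far apart. All 14 had their highest mean level of the 16 tissues in stomach. Without the 3 Scx-/- intestine libraries 10 of them were called, and without the 3 libraries richest in pancreatic genes 11 were.

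Tff1, a trefoil peptide that protects the gastric surface, lay between 47666 and 79775 CPM in stomach (median 59094) and between 53.2 and 2438 CPM in intestine (median 155). Its log2 fold change was 7.61 (SE 1.21, adjusted p = 0.00469). Gkn1 lay between 40930 and 70278 CPM in stomach and between 42.6 and 2453 CPM in intestine (log2 fold change 7.43, SE 1.11, adjusted p = 0.00317). Neither gene overlapped between the tissues. Gkn2 lay between 17806 and 32062 CPM in stomach and between 33.3 and 1237 CPM in intestine (log2 fold change 7.24, SE 0.98, adjusted p = 0.00164). Gkn3 was at 0 in all 6 intestine libraries and ranged from 16.5 to 1575 CPM in stomach, at least 139-fold higher by pooled counts against a floor of 3 counts over the group. That bound was 64.2 without wild-type intestine library 1, which held most of the intestine counts, and 86.6 without wild-type stomach library 1. The adjusted p of Gkn1 was 0.0523 without the 3 libraries richest in pancreatic genes, where its log2 fold change was 8.41. That of Gkn3 was 0.28 without the 3 Scx-/- intestine libraries, where its log2 fold change was 10.88. The 3 gastrokine genes lie side by side on chromosome 6 (87345650 to 87388935, mm10). The mucin Muc5ac, which forms the gastric mucus gel, ranged from 498 to 1822 CPM in stomach and had 2 counts in intestine, a pooled ratio of 401 (95% interval 111 to 3316, counting error only). Psca, a surface protein of pit cells, was at 4710 to 9839 CPM against 0 to 75.5 CPM (log2 fold change 8.60, SE 0.47, adjusted p = 9.68e-70).

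The trefoil factors were divided between the tissues. Their 3 genes lie within 40 kb on chromosome 17 (31125306 to 31165277, mm10), all on the minus strand. Tff1 and Tff2 were higher in stomach and Tff3, the trefoil peptide of goblet cells, was higher in intestine. Tff2, made by mucous neck cells, ranged from 3046 to 8866 CPM in stomach and from 0 to 655 CPM in intestine (log2 fold change 6.03, SE 1.24, adjusted p = 0.0207). The adjusted p was 0.0518 without wild-type intestine library 2 and 0.0858 without the 3 Scx-/- intestine libraries, with log2 fold changes of 6.05 and 6.55. Tff3 ranged from 1396 to 3730 CPM in intestine, with 0 CPM in 4 of 6 stomach libraries and at most 34 CPM in the others (log2 fold change -8.14, SE 0.60, adjusted p = 2.13e-38). Neither gene overlapped between the 2 tissues.

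Acid and pepsinogen genes showed the same direction. Of 15 parietal cell genes 9 were higher in stomach, as were 5 of 6 chief cell genes, and 0 of either list were higher in intestine. The median log2 fold changes were 5.48 and 6.83, and 2.76 and 6.19 with genes at 0 in a tissue set to their bound. Parietal genes took 1.33 to 1.72% of the counts in stomach and 0.0385 to 0.162% in intestine. Atp4a, the catalytic subunit of the proton pump, was at 7419 to 10260 CPM in stomach and 0 to 127 CPM in intestine (log2 fold change 8.85, SE 0.46, adjusted p = 1.07e-66). Atp4b, its partner subunit, was at 3030 to 3987 CPM against 0 to 200 CPM (log2 fold change 6.93, SE 0.61). The stomach libraries of both genotypes lay close together in both subunits. Kcne2, a potassium channel subunit of the acid-secreting membrane, Slc26a9, a chloride transporter, and Esrrg, a nuclear receptor of parietal cells, were at 0 in all 6 intestine libraries and were at least 49.3, 37.3 and 38.6-fold higher in stomach (22.8, 17.2 and 17.8 without wild-type intestine library 1). Pgc, pepsinogen C, was at 28814 to 40707 CPM in stomach and 0 to 1292 CPM in intestine (log2 fold change 7.23, SE 1.12, adjusted p = 0.00412). Gif, gastric intrinsic factor, was at 4034 to 6937 CPM against 0 to 113 CPM (log2 fold change 8.17, SE 0.49).

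The gastric mucous genes were not evenly low in intestine. They took 0.599% and 0.328% of the counts of Scx-/- intestine libraries 1 and 3 and 0.139% of wild-type intestine library 2, and 0.0253 to 0.0341% of the other 3. Chief cell genes took 0.146%, 0.204% and 0.0613% of the counts of these 3 libraries and 0 to 0.0128% of the other 3. Atp4a was at 127, 113 and 23.6 CPM in them and at 0 to 2.58 CPM in the others, and Atp4b at 200, 75.5 and 62.8 CPM against 0. The summed parietal list was also highest in Scx-/- libraries 3 and 1 (0.162% and 0.113%) but lowest in wild-type library 2 (0.0385%). It includes Ezr, which many epithelial cells express and which was at 173 to 1208 CPM in intestine. Genes of pancreatic acinar cells took 0.0194%, 2.37% and 0.853% of the counts of wild-type intestine libraries 1 to 3 and 4.89%, 0.09% and 0.506% of the Scx-/- ones. In stomach they took 3.19% of Scx-/- library 1 and 0.0778 to 0.872% of the other 5. Of the 19 pancreatic genes measured 1 was higher in stomach (Pnliprp2, chosen after its value was seen) and 0 in intestine, against 3.69% of all genes called higher in stomach. The part of tissue taken along at dissection in these values was not tested. Tff1, Gkn1 and Pgc were also counted in other tissues of the series. Their means were 284.1, 229.2 and 181.8 CPM in cartilage and 105.1, 129.9 and 109.8 CPM in rectum, beside 572.1, 748.4 and 417.7 CPM in intestine. The source of these reads was not tested either. Without the 3 libraries richest in pancreatic genes 298 genes were called higher in stomach and 266 higher in intestine. With the pancreatic genes taken out of every total, the gastric mucous genes took 12.3 to 20.2% of stomach and 0.0253 to 0.629% of intestine counts.

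Endocrine cells of the stomach were represented by 8 genes, of which 5 were higher in stomach and 3 of these also with library totals. Ghrl, the precursor of the hunger hormone ghrelin, was at 909 to 2383 CPM in stomach and 0 to 266 CPM in intestine (log2 fold change 5.23, SE 0.56, adjusted p = 2.54e-18). Sst, somatostatin, overlapped: 329 to 805 CPM in stomach and 0 to 642 CPM in intestine, and it was called at a log2 fold change of 2.89 (SE 0.58). Gast, gastrin of the antral G cells, swung from 0 to 695 CPM between stomach libraries, and it was at 0 in 5 of 6 intestine libraries. Without the 3 Scx-/- intestine libraries the adjusted p of Gast was 0.511 at a log2 fold change of 8.78, against 6.64e-09 at 5.74 with all libraries, and 3 genes of the list were called. In intestine 3 of 13 endocrine genes were higher: Cck, cholecystokinin, Sct, secretin, and Nts, neurotensin, against 2.32% of all genes. With counts thinned to the smallest total none of the 3 was called (log2 fold changes -2.42, -4.42 and -4.09, adjusted p 0.392, 0.0629 and 0.0922). Cck ranged from 10.6 to 194 CPM in intestine and had 1 count in stomach (pooled ratio 318, 95% interval 55.6 to 12680).

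**Figure D2:**
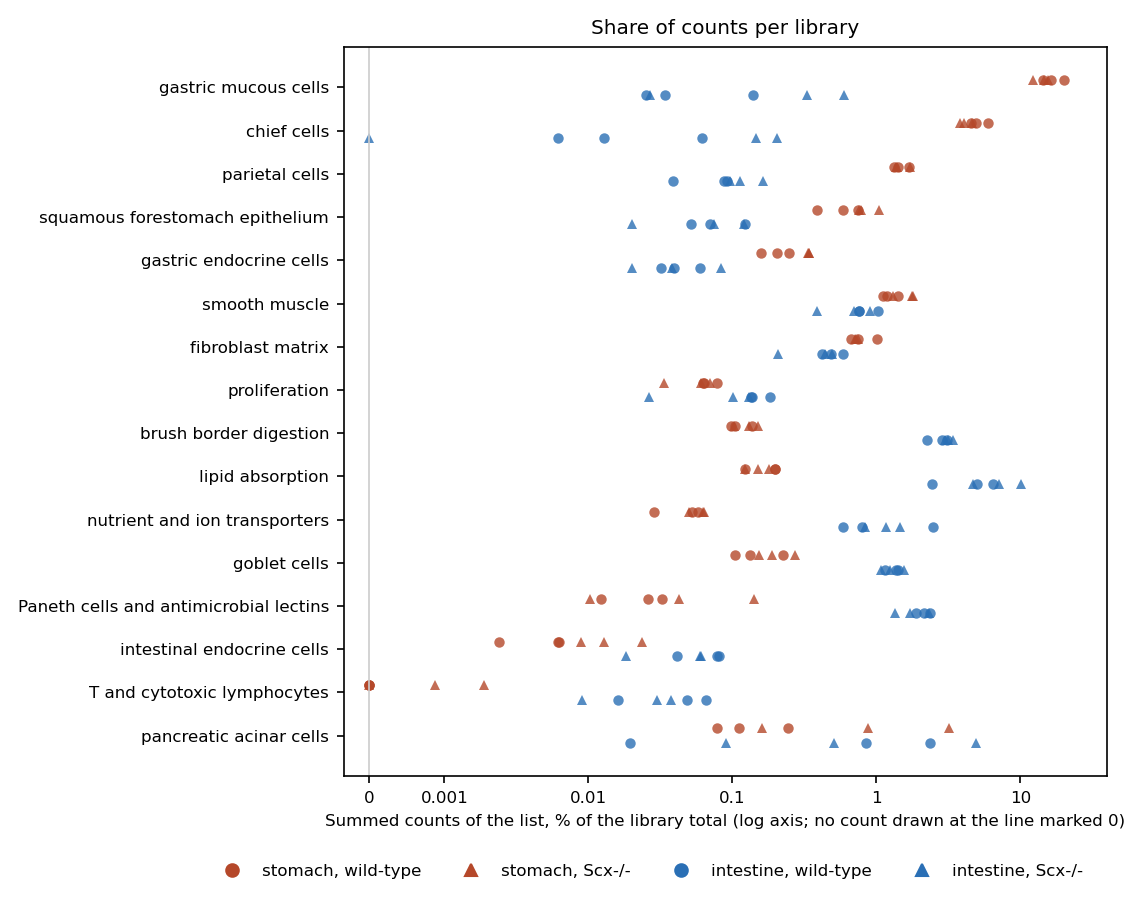
The x axis gives the summed counts of 16 gene lists as percent of the library total on a log axis, 1 point a library, with stomach in red and intestine in blue, wild-type as circles and Scx-/- as triangles. Gastric mucous genes took 12.3 to 20.2% of each stomach library and at most 0.599% of an intestine library, brush border genes 2.26 to 3.41% of intestine against at most 0.151% of stomach, while the pancreatic acinar genes overlap between the tissues.

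The squamous forestomach was present in all stomach libraries. Of 32 genes of stratified, keratinising epithelium 21 were higher in stomach and 0 in intestine (18 with library totals, 15 without the 3 Scx-/- intestine libraries). The median log2 fold change was 5.61, or 3.65 with genes at 0 in a tissue set to their bound. Their share was 0.385 to 1.05% of counts in stomach and 0.02 to 0.122% in intestine. Krt13 and Krt4, the keratin pair of the layers above the basal one in mucosal squamous epithelium, were at 327 to 1143 CPM and 158 to 640 CPM in stomach and at 0 in all 6 intestine libraries, at least 159-fold and 108-fold higher (73.7 and 50.05 without wild-type intestine library 1). Krtdap, a protein of differentiating keratinocytes, was at 704 to 1262 CPM with 1 count in intestine (pooled ratio 598, 95% interval 107 to 23640). Lor, loricrin of the cornified envelope, was called but overlapped, since Scx-/- intestine library 3 held 377 CPM. Keratins and Sprr genes have close copies whose reads the counting could have split. Only 6 of the 21 called squamous genes had their highest mean level of the 16 tissues in stomach, and for Krt10 that tissue was rectum, at 1627 CPM.

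Among the 10 largest differences towards stomach, 6 were squamous genes by their known roles: Krt13, Krt4, Sprr1a, Flg, Cnfn and Krtdap. Bpifb1, a secreted protein of mucous epithelia, was at 579 to 2409 CPM with 1 count in intestine (pooled ratio 843, 95% interval 151 to 33310). Muc1, a membrane mucin, was at 310 to 467 CPM in stomach and 0 in intestine, at least 92.2-fold higher (42.6 without wild-type intestine library 1). The other two were Gkn3 and LOC102631757, a locus without a name in the table, at 508 to 1185 CPM in stomach and 0 in intestine.

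The brush border was the counterpart on the intestinal side. Of 31 genes of brush border digestion 24 were higher in intestine (19 without the 3 Scx-/- intestine libraries) and 0 in stomach, with a median log2 fold change of -4.96. Of 19 lipid absorption genes 15, and of 28 transporters 17, were higher in intestine, again with 0 in stomach. These lists took 2.26 to 3.41%, 2.44 to 10.1% and 0.588 to 2.49% of the counts in intestine. In stomach they took 0.0984 to 0.151%, 0.122 to 0.199% and 0.0284 to 0.0632%.

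Sis was at 167 to 677 CPM in intestine and at 0 in all 6 stomach libraries, at least 418-fold higher (259 without wild-type intestine library 1). Lct was at 589 to 1333 CPM (median 1232) against 2.69 to 13.2 CPM (log2 fold change -6.51, SE 0.66, adjusted p = 4.79e-20). Both disaccharidases of milk and of solid food were thus measured together in every intestine library. Mgam, maltase-glucoamylase, was at 628 to 2366 CPM in intestine and 0 to 15.9 CPM in stomach. Treh, trehalase, was at 196 to 1266 CPM with 1 count in stomach (pooled ratio 1042, 95% interval 186 to 41280). Prap1 was the most abundant gene of the brush border list, at 3218 to 9826 CPM against 0 to 42.9 CPM (log2 fold change -9.13, SE 0.96, adjusted p = 2.84e-06). Alpi, intestinal alkaline phosphatase, was at 566 to 3748 CPM against 0 to 61.3 CPM. Without the 3 Scx-/- intestine libraries the adjusted p of Prap1 was 0.0862 and that of Alpi 0.198, with log2 fold changes of -7.68 and -5.59 (-6.63 for Alpi with all libraries). Lgals4, a galectin of the apical membrane, differed less, at 1799 to 4717 CPM in intestine and 343 to 831 CPM in stomach (log2 fold change -1.77, SE 0.41), and it was as high in rectum, at 2984 CPM. It was not called with all 96 libraries (log2 fold change -1.66, adjusted p = 0.182) or in Scx-/- libraries only (-1.12, 0.267).

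Fat absorption genes had the largest median share of these 3 lists in intestine, at 5.7%. Apoa4, an apolipoprotein of chylomicrons, was at 9988 to 57873 CPM in intestine and 36.3 to 231 CPM in stomach (log2 fold change -6.89, SE 0.36, adjusted p = 4.86e-78). Apoa1, its neighbour, was at 4452 to 14113 CPM in intestine and also at 501 to 1385 CPM in stomach (log2 fold change -2.75, SE 0.35). Apoc3 lies between them, within 14.9 kb on chromosome 9 (46228580 to 46243459, mm10), and was at 1033 to 6097 CPM against 5.71 to 72.6 CPM (log2 fold change -5.92, SE 0.53). All 3 genes of the cluster were higher in intestine, and Apoa1 had the smallest fold change. Fabp2, the intestinal fatty acid binding protein, was at 3392 to 13027 CPM against 17.9 to 198 CPM, and Fabp1 at 1994 to 5497 CPM against 2.99 to 40.4 CPM (log2 fold changes -6.85 and -6.82). Mttp, which loads lipid onto apolipoprotein B, had a log2 fold change of -7.48 (SE 0.64). Apoa1 and Apoc3 were higher in liver than in intestine, at means of 11950 and 3414 CPM.

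Among transporters, Slc5a1, the sodium-coupled glucose carrier, was at 382 to 806 CPM with 3 counts in stomach (pooled ratio 529, 95% interval 180 to 2576). S100g, the calcium-binding protein calbindin-D9k, varied widely, from 323 to 18930 CPM in intestine against 0 to 113 CPM in stomach (log2 fold change -6.95, SE 1.34, adjusted p = 0.0147). Without the 3 Scx-/- intestine libraries its adjusted p was 0.248 at a log2 fold change of -6.83. The peptide carrier Slc15a1 and the bile acid carrier subunit Slc51a were called but had no count in Scx-/- intestine library 3, the library with the fewest counts.

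**Figure D3:**
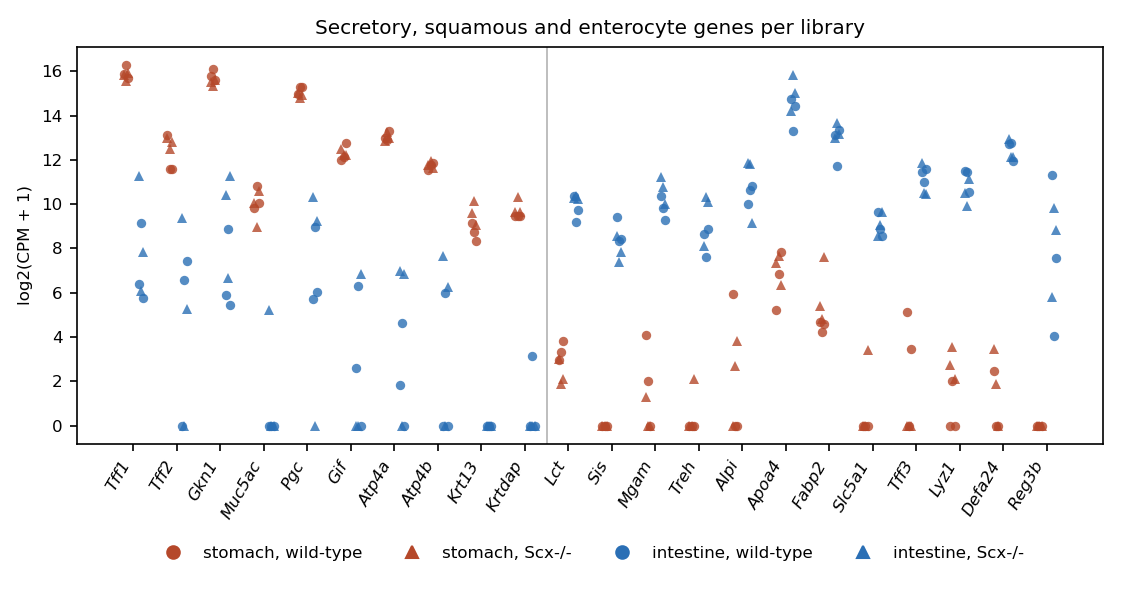
Each point is log2(CPM + 1) of 1 library for 10 genes called higher in stomach (left of the line) and 12 called higher in intestine (right), with stomach in red, intestine in blue, wild-type as circles and Scx-/- as triangles. Krt13 was at 0 in all intestine libraries and Sis and Reg3b in all stomach libraries, while Tff1, Gkn1 and Pgc were detected at low levels in most intestine libraries.

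Mice at 3 weeks stand between suckling and solid food, and the genes of both stages were measured. Of the genes of weaned enterocytes, Sis, Treh and Mgam were higher in intestine, with the values given above. Of 8 genes of suckling enterocytes 4 were higher in intestine, against 2.32% of all genes: Lct, Otc, Cps1 and Fcgrt. Otc and Cps1 are enzymes of citrulline synthesis. Otc ranged from 0 to 267 CPM in intestine with 0 in stomach, at least 109-fold higher, and Cps1 from 95.8 to 565 CPM against 0 to 22.7 CPM (adjusted p = 4.04e-05, and 0.0501 without the 3 libraries richest in pancreatic genes, with log2 fold changes of -4.31 and -3.53). Fcgrt, the receptor that takes up maternal antibody, was at 109 to 471 CPM against 5.98 to 61.3 CPM, at the edge of the threshold (adjusted p = 0.048). Its adjusted p was between 0.0685 and 0.154 without wild-type intestine library 1 or 2, without Scx-/- stomach library 2 or 3, or without any 1 of the 3 wild-type stomach libraries. The log2 fold change lay between -2.78 and -2.07 in these fits. Ass1, an enzyme of arginine synthesis in suckling enterocytes, was not called, with at most 62.8 CPM in intestine and 22.7 CPM in stomach. Suckling genes took 0.13 to 0.224% of intestine counts. With 1 age there is no comparison of stages.

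The stretch of intestine sampled is not labelled, and segment markers were read as values. Of 11 measured 4 were higher in intestine, against 2.32% of all genes: Lct, Fabp1, Slc40a1 and Aqp8. Slc40a1, the iron exporter of the duodenum, ranged from 0 to 691 CPM in intestine and overlapped with stomach (adjusted p = 0.0132). Its adjusted p was 0.49 without Scx-/- intestine library 1, where the log2 fold change was -1.39. It was 0.0508 without wild-type intestine library 2, and 0.0719 and 0.0632 without Scx-/- stomach libraries 1 and 3. The log2 fold changes there were -2.67, -2.49 and -2.50. Rectum had a higher mean of Slc40a1 (271.8 CPM) than intestine (237.8 CPM). Cybrd1, the other iron gene among the segment markers, went the other way, at means of 151.8 CPM in stomach and 99.98 CPM in intestine. It was not called (log2 fold change 1.51, adjusted p = 0.245). Fabp6, the bile acid binding protein of the ileum, had 0 counts in all 6 intestine libraries and 6 counts in stomach. Of the colon markers, Aqp8, a water channel, ranged from 0 to 366 CPM in intestine (adjusted p = 0.000139, and 0.154 without the 3 Scx-/- intestine libraries, with log2 fold changes of -6.53 and -6.83). Car1, a carbonic anhydrase of the colon, had 1 count there. Lactase of the jejunum was thus well measured, while the ileal marker had 0 counts, also in wild-type intestine library 1, which held 386890 counts. In rectum the mean of Fabp6 was 43.45 CPM. Whether ileum was sampled was not tested.

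Regional transcription factors split evenly, with 7 of 28 higher in stomach and 7 higher in intestine under TMM factors, against 3.69% and 2.32% of all genes. Under library totals the split was also 7 and 7. With counts thinned to the smallest total, Cdx1, Cdx2, Isx, Nkx6-3, Foxa2 and Foxa3 were not called (adjusted p 0.0692, 0.155, 0.14, 0.209, 0.0674 and 0.0601), with log2 fold changes of -4.34, -4.07, -3.88, 3.12, 4.05 and 3.45. The 7 factors higher in stomach were Barx1, Sox21, Nkx6-3, Foxq1, Foxa1, Foxa2 and Foxa3. Barx1, which the gastric mesenchyme uses to specify the stomach, was at 15 to 139 CPM in stomach and 0 in intestine, at least 19.6-fold higher. Sox21 (8.97 to 247 CPM) and Foxa1 (102 to 191 CPM) were also at 0 in all 6 intestine libraries, at least 23.9-fold and 34.8-fold higher. Without wild-type intestine library 1 these bounds were 9.07 for Barx1, 11.1 for Sox21 and 16.1 for Foxa1. Foxq1, which Muc5ac expression in pit cells needs, was at 371 to 511 CPM against 0 to 127 CPM (log2 fold change 3.11, SE 0.63, adjusted p = 4.48e-05). Nkx6-3, a factor of the antrum, had counts in 4 of 6 stomach libraries and overlapped, and its adjusted p of 0.0186 became 0.211 without wild-type stomach library 1 (log2 fold changes 6.01 and 4.25). Foxa2 lost its call without that same library (adjusted p 0.0162 and 0.0566, log2 fold changes 4.21 and 4.15).

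The intestinal factors were Cdx1, Cdx2, Isx, Hnf4g, Creb3l3, Onecut2 and Vdr. Cdx2, the homeobox gene that sets intestinal identity, was at 71 to 149 CPM in the 3 wild-type intestine libraries, 18.2, 0 and 0 CPM in the Scx-/- ones and 0 in all of stomach, at least 70.6-fold higher over the pooled counts. Cdx1 had 81 counts in intestine and 1 in stomach (pooled ratio 277, 95% interval 48.3 to 11060), and its adjusted p of 8.48e-05 became 0.118 without Scx-/- intestine library 1 (log2 fold changes -6.54 and -4.86). Isx, a homeobox gene under retinoid control, and Hnf4g, a nuclear receptor of enterocytes, were also missing from 2 and 1 of the intestine libraries. For Isx these were wild-type library 3, which held 93927 counts, and Scx-/- library 2. At the 26500 to 54955 counts of the Scx-/- intestine libraries a gene at these levels gives only a few counts, so that a 0 there says that it was not detectable at this depth. Vdr, the vitamin D receptor, did not overlap, at 245 to 983 CPM against 0 to 20 CPM (log2 fold change -6.33, SE 0.81, adjusted p = 1.19e-12), and neither did Creb3l3, a membrane-bound factor of lipid metabolism (283 to 894 CPM against 0 to 53.8 CPM).

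Other factors of the foregut and midgut were measured in both tissues and were not called. Gata4 was at 23.1 to 129 CPM in stomach and 0 to 302 CPM in intestine, Gata5 at 13.2 to 118 CPM and 0 to 377 CPM, and Gata6 at 12 to 152 CPM and 10.6 to 259 CPM. Hnf4a was at 35.9 to 114 CPM in stomach and 113 to 300 CPM in intestine, with only the lowest intestine library at the highest stomach value (log2 fold change -1.17, SE 0.74, adjusted p = 0.377). Sox2, a foregut factor, had 43 counts in stomach and 1 in intestine (pooled ratio 12.6, 95% interval 2.14 to 509) and an adjusted p of 0.321. Klf4, Klf5 and Elf3, factors of epithelial differentiation, had log2 fold changes of 1.57, -0.36 and -0.22 (adjusted p = 0.063, 0.775 and 0.825). With DESeq2 the adjusted p was 0.00552 for Klf4 and 0.0137 for Hnf4a. Klf4 was also called without Scx-/- intestine library 3 (adjusted p = 0.0473), without all 3 Scx-/- intestine libraries (0.0331) and with low-count genes filtered out (0.0209). A miss of the threshold does not show that these levels were alike.

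**Figure D4:**
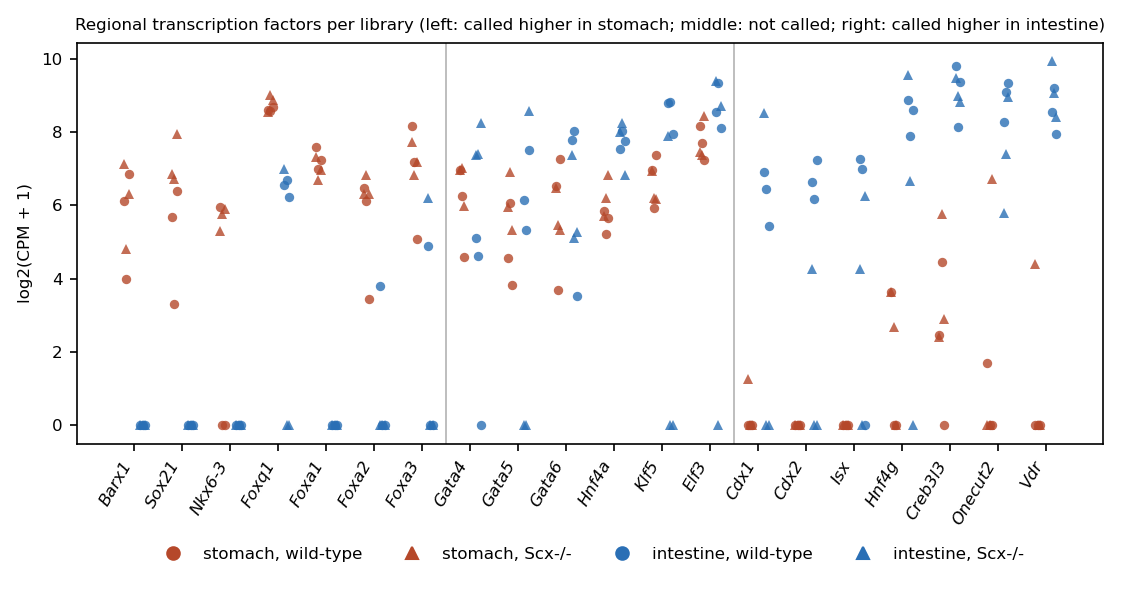
Each point is log2(CPM + 1) of 1 library for 20 regional transcription factors, with stomach in red, intestine in blue, wild-type as circles and Scx-/- as triangles. Barx1, Sox21 and Foxa1 were at 0 in all 6 intestine libraries, Cdx2 and Isx in all 6 stomach libraries, and the 6 factors in the middle were not called.

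Secretory cells of the intestinal crypt were marked by defensins and lectins. Of 20 Paneth cell and antimicrobial lectin genes 17 were higher in intestine, and 1, the stress gene Nupr1 (named after its value was seen), was higher in stomach. The list took 1.34 to 2.35% of intestine counts and 0.0102 to 0.142% of stomach counts, and 9 of the 17 were called without the 3 Scx-/- intestine libraries. Reg1 was its most abundant member, at means of 6894 CPM in intestine and 285.9 CPM in stomach. Adipose had the highest mean of Reg1, at 33310 CPM, and also that of the pancreatic acinar gene Ctrb1, at 136500 CPM. The stomach maximum of 0.142% was in Scx-/- library 1, where pancreatic acinar genes took 3.19% of the counts. The part of pancreatic RNA in the share of this list was not tested. Lyz1, the lysozyme of Paneth cells, was at 966 to 2890 CPM in intestine and 0 to 10.8 CPM in stomach (log2 fold change -8.10, SE 0.63, adjusted p = 8.88e-35). Defa24, an alpha-defensin, was at 3907 to 7879 CPM against 0 to 10 CPM (log2 fold change -9.81, SE 0.55). Alpha-defensin genes are near-identical copies, so the split between Defa24, Defa17, Defa30 and AY761184 is uncertain, while all 4 were called in the same direction. Reg3b, a C-type lectin that binds bacterial walls, differed widely between intestine libraries, at 2564, 15.7 and 192 CPM in wild-type and 54.6, 900 and 453 CPM in Scx-/- samples, with 0 counts in stomach. It was at least 1200-fold higher over pooled counts, and at least 153-fold without wild-type intestine library 1. Its adjusted p was 0.0754 without Scx-/- intestine library 3 and 0.541 without all 3 Scx-/- intestine libraries, with log2 fold changes of -10.14 and -11.18. Reg3g, which lies with Reg3b on a stretch of 98.2 kb on chromosome 6, had 112 counts in intestine, 0 in stomach and no count in 3 intestine libraries.

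Goblet cell genes did not move as 1 group. Of 14 measured 7 were higher in intestine and 2, Agr2 and Sytl2, in stomach. Agr2, a disulphide isomerase needed for mucin folding, was at 739 to 1403 CPM in stomach and 75.5 to 652 CPM in intestine (log2 fold change 2.74, SE 0.50, adjusted p = 3.68e-06). Muc13, a membrane mucin, was at 906 to 2899 CPM in intestine and 0 to 15 CPM in stomach, and Fcgbp, a protein of the mucus gel, at 437 to 1174 CPM against 0 to 35.7 CPM. Zg16, a lectin of goblet cell granules and of pancreatic zymogen granules, did not overlap (2865 to 5204 CPM against 0 to 951 CPM), but its adjusted p was 0.124. Whether Zg16 was called depended on the setting. Its adjusted p was 3.48e-07 with DESeq2, 1.85e-10 with thinned counts and 0.000272 without wild-type stomach library 2. It was 3.1e-18 without Scx-/- stomach library 1 and 1.32e-16 without the 3 libraries richest in pancreatic genes.

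Among the 10 largest differences towards intestine were also Aoc1, the diamine oxidase that degrades dietary histamine (66.6 to 925 CPM, 0 in stomach), Cdh17, an intestinal cadherin (453 to 1054 CPM, 1 count in stomach), and Gm5485, an unnamed gene (323 to 728 CPM, 0 in stomach). Ccl25, the chemokine that draws lymphocytes to the small intestine, was at 373 to 1396 CPM with 1 count in stomach (pooled ratio 1667, 95% interval 298 to 65960). The tight junction gene Cldn15 was at 37.7 to 728 CPM in intestine and 0 in stomach, at least 322-fold higher. Its relative Cldn18 lay the other way, at 562 to 796 CPM in stomach with 3 counts in intestine (pooled ratio 163, 95% interval 55.7 to 791).

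Lymphocyte genes took small shares of the counts. Of 11 T and cytotoxic lymphocyte genes 2 were higher in intestine, against 6.01% of all genes called in either direction, and their summed share was 0.0091 to 0.0659% in intestine and 0 to 0.00188% in stomach. Gzma, a granzyme of intraepithelial lymphocytes, had 141 counts over 5 of the intestine libraries and 0 in stomach, at least 161-fold higher. Of 8 B and plasma cell genes 1 was called (Cd22, named after its value was seen). Of 24 proliferation genes and 10 MHC class II and myeloid genes 0 were called.

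Stem cell genes gave 2 higher in stomach (Sox9 and Prom1) and 1 higher in intestine of 13 measured, against 3.69% and 2.32% of all genes. Olfm4, a secreted protein of intestinal crypt base cells, was at 234 to 644 CPM in the 3 wild-type intestine libraries and at 437, 0 and 0 CPM in the Scx-/- ones, against 0 to 59.4 CPM in stomach (log2 fold change -4.14, SE 0.80). Without the 3 libraries richest in pancreatic genes its adjusted p was 0.111 at a log2 fold change of -3.51. The median of this list was 1.27 with TMM factors and -0.74 with DESeq2, so no direction is given for it.

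Of the genes of the wall, some of those of smooth muscle and matrix were higher in stomach. Of 24 smooth muscle genes 10 were higher in stomach and 0 in intestine, 5 with library totals and 6 without the 3 Scx-/- intestine libraries, and the median log2 fold change was 1.68 against 1.00 for all genes. Acta2, smooth muscle actin, was at 1575 to 3207 CPM in stomach and 453 to 1274 CPM in intestine (log2 fold change 2.01, SE 0.40, adjusted p = 2.79e-05). Actg2, the actin of visceral muscle, was at 1353 to 2737 CPM against 226 to 801 CPM (log2 fold change 2.29, SE 0.42). Myh11, the heavy chain of smooth muscle myosin, overlapped and was not called (log2 fold change 1.34, SE 0.47, adjusted p = 0.0617), although it was called with low-count genes filtered out by filterByExpr (adjusted p = 0.0135), with all 96 libraries (0.0328), in Scx-/- libraries only (0.021) and without wild-type intestine library 2 (0.034) or wild-type stomach library 2 (0.0158). Of 15 fibroblast matrix genes 6 were higher in stomach and 2 with library totals, with Col1a2 at 877 to 1908 CPM against 100 to 997 CPM. Of all genes 3.69% were higher in stomach, and 2.13% with library totals. Col1a1 lost its call without wild-type stomach library 3 (adjusted p 0.0178 and 0.0625, log2 fold changes 1.46 and 1.39). Of 18 genes of enteric neurons, glia and pacemaker cells 1 was called (Ano1, higher in stomach, named after its value was seen), against 6.01% of all genes in either direction. Their median log2 fold change was 0.74, and -0.10 with DESeq2. Their share was 0.0239 to 0.0442% of counts in stomach and 0.017 to 0.0582% in intestine, so that the tissues overlapped. None of the 10 muscle and 6 matrix genes had its highest mean level of the 16 tissues in stomach.

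Detoxification enzymes divided by gene, with 7 of 34 higher in stomach and 11 higher in intestine, against 3.69% and 2.32% of all genes. With library totals 6 and 15 were, against 2.13% and 3.74%. Gsta4, a glutathione transferase for lipid aldehydes, was at 1653 to 2243 CPM in stomach and 0 to 346 CPM in intestine, and the cytochrome Cyp2s1 was at 745 to 1328 CPM against 0 to 98.2 CPM (log2 fold changes 4.81 and 5.15). Cyp3a11, a cytochrome that clears drugs, was at 385 to 1820 CPM in intestine against 0 to 16.5 CPM, and Ces2e, a carboxylesterase, at 1629 to 2701 CPM against 0 to 48.4 CPM (log2 fold changes -5.72 and -6.93). The alcohol dehydrogenases went apart: Adh7 was at 32.3 to 243 CPM in stomach with 2 counts in intestine (pooled ratio 35, 95% interval 9.58 to 291), and Adh1 at 533 to 928 CPM in intestine against 19.8 to 221 CPM (log2 fold change -2.40, SE 0.57, adjusted p = 0.00126). Genes of hepatocytes were checked as a sign of other tissue. Of 13 measured 3 were higher in stomach and 1, Cps1, in intestine, against 3.69% and 2.32% of all genes. Among the 3 was Alb at 182 to 367 CPM against 0 to 10.3 CPM, while liver had 88840 CPM. The part of liver RNA in these values was not tested.

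The 2 genotypes share no library, and each was fitted on its own with 3 against 3 libraries. In wild-type mice 223 genes were higher in stomach and 269 in intestine (1.58% and 1.9% of 14130 tested), and in Scx-/- mice 177 and 171 (1.26% and 1.22% of 14033). Of the 492 genes called in wild-type 486 were tested in Scx-/- mice, and 473 of these had the same sign there. The median log2 fold change of all genes was 0.45 in the wild-type fit and 2.34 in the Scx-/- fit, so that signs were not set against the same centre. The 228 genes called in both were 46.3% of the wild-type and 65.5% of the Scx-/- calls, all in the same direction. Some abundant gastric genes were called in neither genotype alone. Tff1 had a log2 fold change of 8.60 (adjusted p = 0.084) in wild-type and 6.72 (adjusted p = 0.191) in Scx-/- libraries, Gkn1 8.78 (0.0848) and 6.12 (0.136), Pgc 8.04 (0.0906) and 6.48 (0.19), and Tff2 6.53 (0.295) and 5.64 (0.193). The tissue difference itself was tested for dependence on genotype, and 6 of 15710 genes passed at an adjusted p under 0.05 (0.0382%), with 1306 at an unadjusted p under 0.05.

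**Figure D5:**
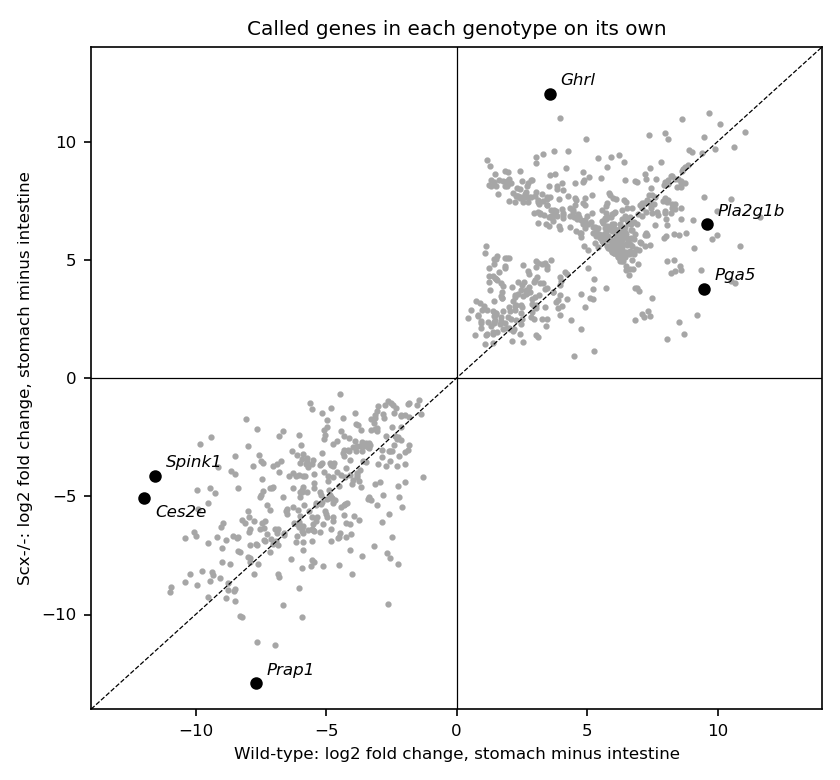
Each point is 1 of the 933 called genes with a value in both genotypes, with the log2 fold change (stomach minus intestine) fitted in the 3 against 3 wild-type libraries on the x axis and in the 3 against 3 Scx-/- libraries on the y axis. The 6 named points are the genes whose difference passed the test of tissue by genotype, and the dashed line marks equal values. The medians of all genes lay at 0.45 on the x axis and 2.34 on the y axis.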

How the data were processed

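The deposited values are raw counts for each gene symbol. The authors aligned reads with Bowtie2 to the mm10 genome and counted them with HTSeq. The sources used here do not give versions, annotation, strand or molecular identifiers. Total RNA was reverse transcribed and built into 3′-enriched pooled libraries. From these counts, 15710 genes above 0 in at least 1 of the 12 libraries were tested with edgeR 4.0.16 (R 4.3.3; TMM, robust quasi-likelihood fit on genotype and tissue, Benjamini-Hochberg). The SE is the absolute log2 fold change divided by the root of F. The labels do not name the animal of a library. Xist and Y-linked counts showed both patterns within each genotype of stomach, so a group held more than 1 animal, and p-values measure the spread between these libraries. Replicates differed by 9.66 to 14.9 times the sampling noise. Named genes are the 10 largest non-overlapping differences in each direction at 100 CPM or more, the 4 most abundant members of each of 32 lists, every member of 5 of them, Scx and the 5 smallest interaction p, and some others chosen after their values were seen; not all are printed. The comparison and the lists were chosen with earlier results of these data known. Intervals are exact binomial at 95% and, like floors of 3 counts, cover counting error only. Coordinates and upstream sequences are from GENCODE and RefSeq on GRCm38 (mm10). Alternatives were DESeq2 1.42.0, other scalings, filters and designs, thinning to 26500 counts, and leaving out libraries. The fits were tested on simulated counts.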

Additional observations from a re-analysis of the deposited data

Results flagged for a closer look

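In 6 genes the difference between stomach and intestine itself differed between wild-type and Scx-/- mice (quasi-likelihood test of edgeR for tissue by genotype). The value printed is the log2 fold change of stomach minus intestine in Scx-/- minus that in wild-type libraries. In each gene 1 of the 4 groups held few or 0 counts, so that the size depends on the prior count of the fit. With every library thinned to the smallest total 0 genes passed, and with DESeq2 19 did.

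Spink1, a trypsin inhibitor of pancreas and gut, gave 7.45 (adjusted p = 2.44e-05). It had 0 counts in the 3 wild-type stomach libraries and 126, 2.69 and 48.7 CPM in the Scx-/- ones, against 809 to 2386 CPM in intestine. Pancreatic acinar genes took 3.19%, 0.162% and 0.872% of the counts of those Scx-/- stomach libraries and 0.0778 to 0.245% of the wild-type ones, and their part in this value was not tested. The call of Spink1 between the tissues was lost without Scx-/- stomach library 3 (log2 fold change -6.22, adjusted p = 0.0519). Ces2e gave 6.88 (adjusted p = 9.76e-05), again with 0 counts in wild-type stomach and 15.7, 48.4 and 39 CPM in Scx-/- stomach. Prap1 gave -5.23 (adjusted p = 0.000192), with 23 counts in wild-type stomach and 0 in Scx-/- stomach. Ghrl gave 8.63 (adjusted p = 0.000256), with 28.4, 102 and 266 CPM in wild-type intestine and 0 counts in the 3 Scx-/- intestine libraries, which held 26500 to 54955 counts each.

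Pla2g1b, a secreted phospholipase, gave -3.0003 (adjusted p = 0.00111). It was at 11633 to 14966 CPM in all 6 stomach libraries, at 18.1 to 31.4 CPM in wild-type intestine and at 455, 66.6 and 226 CPM in Scx-/- intestine. Of the 16 tissues stomach had its highest mean level, at 13020 CPM, and the next was adipose, at 1147 CPM. Pga5, a pepsinogen, gave -5.63 (adjusted p = 0.0217), with 1 count in wild-type and 9 in Scx-/- intestine, all 9 of them in library 1, and its call between the tissues was lost without Scx-/- intestine library 3 (log2 fold change 5.79, adjusted p = 0.07). Scx-/- intestine library 1 also held the largest share of gastric mucous genes in intestine (0.599%) and of pancreatic genes (4.89%). The part of these shares in the 2 values was not tested.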

How the results depend on the processing

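The main counts were 579 genes higher in stomach and 365 higher in intestine. They were 711 and 456 with DESeq2, 530 and 444 with RLE size factors, 624 and 368 with filterByExpr, and 608 and 471 without the covariate. Larger shifts came with library totals (334 and 588), all 96 libraries (1105 and 352), an unadjusted p (2116 and 769) and thinning to the smallest total (246 and 218). They also came with wild-type libraries only (223 and 269), Scx-/- libraries only (177 and 171), and, chosen after seeing the data, without the 3 Scx-/- intestine libraries (340 and 269) or the 3 richest in pancreatic genes (298 and 266). Fewer libraries or counts entered these 5. Leaving out 1 library gave 422 to 619 and 293 to 355. Under each of these settings 0 of the 944 genes were called in the opposite direction. The 6 genes that depended on genotype became 19 with DESeq2, 12 with RLE size factors, 12 with library totals, 3 with filterByExpr, 0 with thinning and 13 without the pancreas-rich libraries. Leaving out 1 library gave 5 to 29, and the 3 Scx-/- intestine libraries gave 29, 19 and 14. The cause was not tested.

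With the replicate block, the replicate number within genotype as a block, 363 and 226 genes were called. Deviations of libraries that shared a number correlated at 0.016 to 0.060, under the limit for pairing, although each of the 6 stomach libraries correlated best with its own number. Xist and Y-linked counts followed the number: 82 of 86 libraries of the 15 other tissues with either pattern matched the stomach library of that number and genotype, the 5 such intestine libraries among them. The labels do not say that a number marks 1 animal. Of the genes named here, those called without the block and not with it were Tff2 (log2 fold change 6.88, adjusted p = 0.125), S100g (-7.56, 0.127), Nkx6-3 (6.14, 0.0844), Fcgrt (-2.61, 0.134) and Slc40a1 (-2.002, 0.488), while Zg16 was called with it and not without (adjusted p = 1.05e-07). Of 116 called genes 106 kept their call without any 1 library and 68 under every alternative that gave an adjusted p. Signs reversed only in genes that were not called (log2 fold changes). Ass1 gave 1.21 with all 96 libraries, 4.47 with Scx-/- libraries only, 0.68 with the block, 1.21 without the pancreas-rich libraries and -0.88 to 1.57 without 1 library. Under the last 4 of these settings Gata6 gave 0.37, 0.15, 0.25 and -0.47 to 0.14, Klf5 gave 0.84, 0.024, 0.13 and -0.72 to 0.033, and Elf3 gave 0.17, 0.078, 0.44 and -0.52 to 0.14. Gata5 gave 0.39 with Scx-/- libraries only, 0.12 with the block and -0.63 to 0.53 without 1 library. For 10 named genes DESeq2 gave no adjusted p, and these were counted neither as kept nor as lost.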

Other observations

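Some abundant genes outside the lists also separated the tissues, and they were chosen after their values were seen. Cym, the milk-clotting protease chymosin, was at 7033 to 33197 CPM in stomach (median 11963) and 128 to 533 CPM in intestine, without overlap (log2 fold change 6.68, SE 0.36, adjusted p = 3.89e-73). Car2, a carbonic anhydrase, was at 1284 to 1654 CPM in stomach against 0 to 394 CPM (log2 fold change 5.06, SE 0.53), and its adjusted p was 0.237 without the 3 Scx-/- intestine libraries, at a log2 fold change of 4.09. Pigr, the receptor that carries IgA across the epithelium, was at 1962 to 4766 CPM in intestine against 0 to 45.4 CPM (log2 fold change -6.78, SE 0.92), and its adjusted p was 0.135 without these libraries, at a log2 fold change of -7.45.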
